A study of Mus musculus with 12 samples.

Results

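Visceral endoderm and fetal liver share a large secretory programme, and 32 genes of these tissues were followed in whole mouse embryos at mid-gestation (E10.5). The genes are 12 plasma proteins, 8 apolipoproteins and lipoprotein assembly genes, 5 genes of the yolk sac uptake machinery, 5 endoderm transcription factors and 2 epithelial adhesion genes. A gene was measured where a probe set carried its symbol alone. This gave 30 measured genes with 57 probe sets, out of 18193 genes on the array, and the probe set with the highest mean represented each gene. Trf (transferrin) and Serpina1a lie only on probe sets shared by several symbols and were not analysed here.

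The series holds 12 arrays, 1 per embryo and 3 per genotype: wt, acd (Acdacd/acd, homozygous for the acd allele of Acd, which encodes the shelterin protein TPP1), p53 (p53-/-), and double (Acdacd/acd together with p53-/-). The labels give whole embryos for all of them. The sources used here give neither strain nor litter, nor whether yolk sac stayed attached at dissection, and the labels call the replicates biological. The design sets the acd embryos against wt and asks which differences are present without p53. All values are log2 expression levels after RMA, a normalization that brings the arrays to a common distribution, so a difference of 1 is a doubling.

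The visceral endoderm of the yolk sac is the first tissue of the embryo to make plasma proteins and lipoproteins. It also takes up maternal protein through the cubilin, amnionless and megalin receptors. Hepatoblasts of the liver bud take over secretion as the liver grows, under HNF4A, the FOXA factors and HNF1. Most of the secreted products are therefore common to both tissues, whereas albumin is typical of liver and the cubilin receptor of visceral endoderm at this stage. In RNA of whole embryos, more cells of a type and more RNA per cell cannot be told apart.

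The Acd probe set, the check of the genotype labels, read 8.99 ± 0.01 (SD, n = 3) in wt and 8.91 ± 0.12 in p53 embryos, against 8.26 ± 0.05 in acd and 8.36 ± 0.11 in double embryos. Double replicates 1 and 2 stood apart: they correlated with the rest at a median of 0.972 and 0.987, and each of the remaining 10 arrays reached 0.995. The median SD of a gene within a genotype was 0.21 in double embryos and between 0.06 and 0.10 in the other genotypes. Y-linked genes were expressed in 1 wt embryo (replicate 1), all acd and p53 embryos and 1 double embryo (replicate 1), so genotype and sex overlap in part. All 8 markers of whole embryo tissues lay above the array median on every array. Of 9 trophoblast markers, 5 were measured, of which Tpbpa, Ascl2 and Elf5 lay below the 40th percentile on all arrays. The other 2, Hand1 and Tfap2c, ranged from 6.02 to 6.44 and from 5.9957 to 6.60.

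Of the 30 measured members, 23 were tested, because their probe set lay above its array's 40th percentile (4.62 to 4.72) on at least 3 arrays. The other 7 were Fga, Apoa4, Apoc2, Apoh, Cubn, Vil1 and Foxa3. Levels above the array median (5.32 to 5.40) on all 12 arrays were found for 17 members. Values near or below the medians are not shown to exceed background, which can compress differences. Tests were two-sided limma tests with Benjamini-Hochberg adjustment over all 13501 tested genes, called at an adjusted p of 0.05. No member was called in any comparison. The patterns below are therefore given as levels per embryo, with the number of embryos that carry them.

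**Figure D1:**
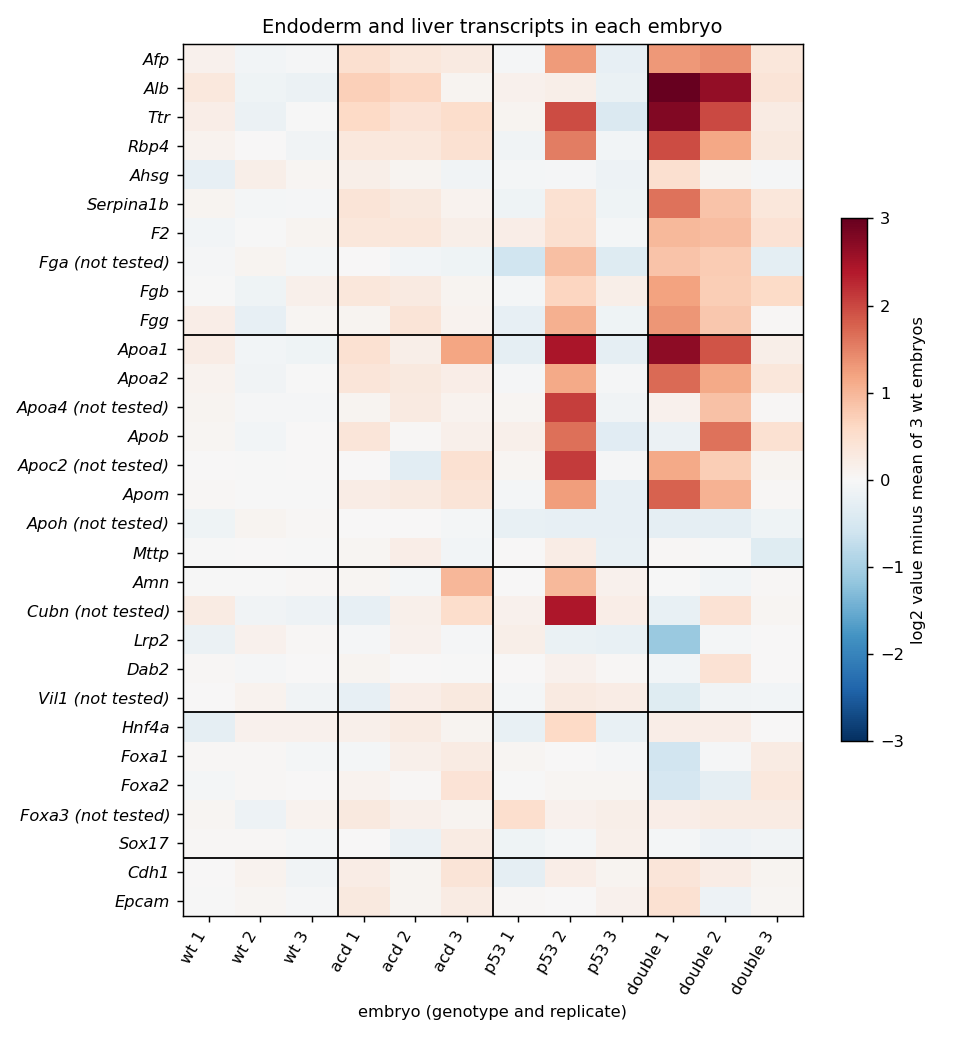
Difference of each embryo from the wt mean (log2, colour scale from -3 to 3) for the 30 measured members, in rows by role, across the 12 arrays in columns. Double replicates 1 and 2 are high over most plasma proteins and apolipoproteins, and p53 replicate 2 is high over many of the same genes but not Alb. Double replicate 3 shows smaller differences, exceeding the highest wt embryo in 15 of 30 members, against 25.0% of all tested genes.

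Albumin and alpha-fetoprotein separated the high embryos. Alb, the main plasma protein of adult liver, read 7.56, 7.11 and 7.08 in the wt embryos and 7.96, 7.88 and 7.33 in acd. It read 7.39, 7.43 and 7.04 in p53 embryos, and 10.25, 9.89 and 7.64 in double. All 3 double embryos lay above all wt and p53 embryos, and replicates 1 and 2 lay far above the rest. Afp, the fetal relative of albumin made by visceral endoderm and liver, read 11.44, 11.23 and 11.28 in wt, 11.79, 11.66 and 11.60 in acd, 11.28, 12.60 and 11.08 in p53 embryos, and 12.63, 12.72 and 11.65 in double. For Afp, p53 replicate 2 was close to double replicates 1 and 2. Its Alb level was 0.18 above the wt mean and within the wt range, whereas its Afp level was 1.28 above the wt mean. In double replicates 1 and 2, Alb stood 3.0 and 2.64 above the wt mean and Afp 1.31 and 1.40 above it. The 3 brighter of 5 Afp probe sets gave double minus wt differences of 0.92 to 1.24, and the 2 dim ones lay below the 40th percentile.

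Alb and Afp are neighbours on chromosome 5 in assembly GRCm38.p6, with no protein-coding gene between them. Their proximal promoters are printed because these neighbours parted in p53 replicate 2. Each sequence is the 150 bases before the RefSeq transcription start, 5′ to 3′ on the gene's strand. Capitals mark matches on either strand to the FOXA motif TGTTTGC, the HNF1 motif GTTAATNAT and the TATA motif TATAAA. The Alb window is chr5:90460720-90460869 (plus strand) and the Afp window chr5:90490564-90490713 (plus strand).
Alb: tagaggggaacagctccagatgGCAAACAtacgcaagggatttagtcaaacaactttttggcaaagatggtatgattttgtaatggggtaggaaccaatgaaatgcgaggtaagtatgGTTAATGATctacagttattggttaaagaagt
Afp: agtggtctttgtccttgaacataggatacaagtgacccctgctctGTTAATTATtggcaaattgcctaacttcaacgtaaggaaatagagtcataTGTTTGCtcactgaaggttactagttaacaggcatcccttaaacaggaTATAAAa
The Alb match to the FOXA motif reads GCAAACA, its reverse complement, and no matches overlapped in the printed windows. Both windows held 1 FOXA match and 1 HNF1 match, in opposite order, and the Afp window alone held a TATA match. Matches are descriptions of letters, not sites shown to be bound.

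**Figure D2:**
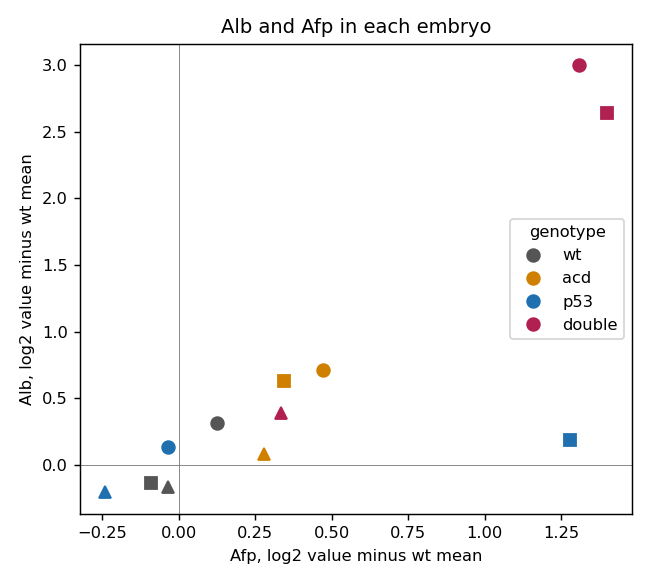
Difference from the wt mean (log2) of Alb (y axis) against that of Afp (x axis) for the 12 embryos, coloured by genotype, with circles, squares and triangles for replicates 1, 2 and 3. Double replicates 1 and 2 are high on both axes, p53 replicate 2 is at 1.28 for Afp and 0.18 for Alb, and the other 9 embryos lie between -0.21 and 0.71 for Alb.

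Carrier proteins of small hydrophobic molecules followed Afp. Ttr, the carrier of thyroid hormone, read 9.22, 8.85 and 9.01 in wt, 9.63, 9.43 and 9.56 in acd, 9.11, 10.99 and 8.59 in p53 embryos, and 11.80, 10.997 and 9.27 in double. Rbp4, the retinol carrier, read 7.52, 7.44 and 7.31 in wt, 7.75, 7.74 and 7.87 in acd, 7.31, 8.96 and 7.34 in p53 embryos, and 9.39, 8.59 and 7.72 in double. In both genes all acd and all double embryos lay above all wt embryos, and 1 of 3 p53 embryos stood high. The 4 Ttr probe sets gave double minus wt differences between 1.46 and 1.71.

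Among inhibitors and clotting factors, Serpina1b, an alpha-1-antitrypsin, read 7.11, 6.99 and 7.01 in wt, 7.42, 7.33 and 7.15 in acd, 6.90, 7.49 and 6.91 in p53 embryos, and 8.66, 7.90 and 7.36 in double. Its 2 probe sets gave double minus wt differences of 0.94 and 0.88. Both are of the kind that can bind transcripts of close paralogs, so the value may cover other members of this multigene family. F2, prothrombin, read 5.18, 5.25 and 5.35 in wt, 5.60, 5.59 and 5.42 in acd, 5.47, 5.75 and 5.20 in p53 embryos, and 6.23, 6.17 and 5.70 in double. F2 levels in all wt embryos lay below their array medians (5.34 to 5.36), so this baseline is not shown to exceed background. Double embryos did not overlap wt or acd embryos for F2. The fibrinogen genes Fga, Fgb and Fgg encode the chains of the clot protein and are neighbours on chromosome 3. Fgb read 5.97, 5.85 and 6.12 in wt, 6.32, 6.25 and 6.06 in acd, 5.92, 6.62 and 6.16 in p53 embryos, and 7.19, 6.70 and 6.54 in double. Fgg read 6.12, 5.67 and 5.98 in wt, 5.9985, 6.30 and 6.03 in acd, 5.68, 6.98 and 5.80 in p53 embryos, and 7.24, 6.73 and 5.95 in double. Fga stayed below the 40th percentile on all arrays, and its 3 highest values were those of p53 replicate 2 (4.61) and double replicates 1 and 2 (4.56 and 4.47). Those 3 embryos were also highest for Fgb and Fgg, while the order of Fga values is not shown to exceed background. Ahsg, fetuin-A, lay between 4.33 and 5.06, never above an array median, and gives no usable pattern.

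**Figure D3:**
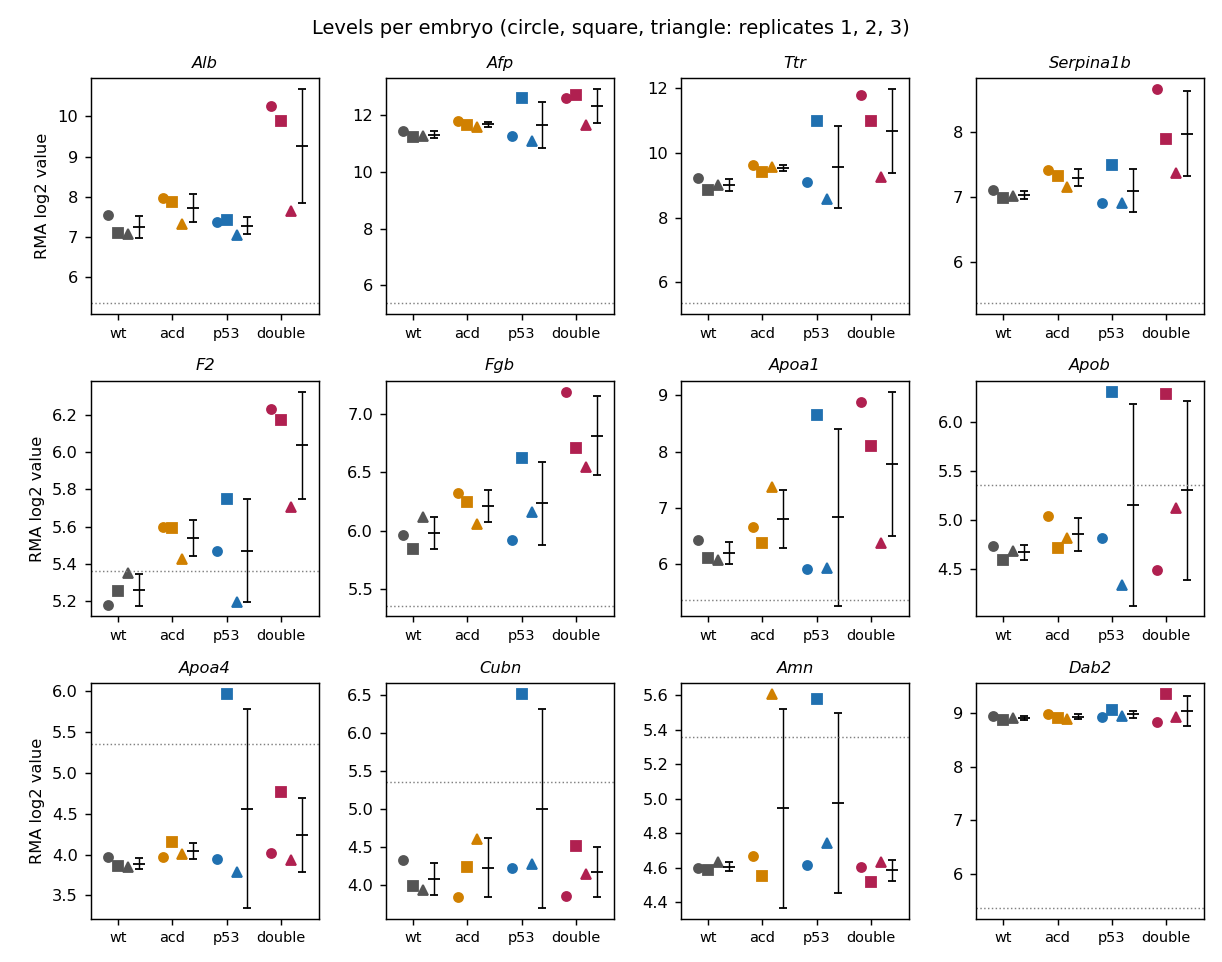
Levels (log2, y axis with its own range in each panel) of selected members in the 4 genotypes on the x axis, 1 point per embryo with mean ± SD (n = 3) and a dotted line at the mean array median. The double group is spread by replicates 1 and 2, and the p53 group by replicate 2, for example 8.65 for Apoa1 against 5.92 and 5.93 in the other p53 embryos.

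Apolipoproteins, the protein shell of lipoprotein particles, were high in the same 3 embryos. Apoa1, the main protein of high-density lipoprotein, read 6.43, 6.11 and 6.07 in wt, 6.67, 6.38 and 7.38 in acd, 5.92, 8.65 and 5.93 in p53 embryos, and 8.88, 8.09 and 6.38 in double. Its 4 probe sets gave double minus wt differences between 1.41 and 1.58. Apoa2 read 7.98, 7.75 and 7.86 in wt, 8.22, 8.15 and 8.05 in acd, 7.83, 8.999 and 7.83 in p53 embryos, and 9.57, 8.99 and 8.20 in double. Apom, the carrier of sphingosine-1-phosphate, read 6.66, 6.62 and 6.61 in wt, 6.86, 6.91 and 7.03 in acd, 6.57, 7.88 and 6.38 in p53 embryos, and 8.41, 7.68 and 6.67 in double. In Apoa2 and Apom all acd and all double embryos lay above all wt embryos, although Apom in double replicate 3 (6.67) only just passed the highest wt embryo (6.66).

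Apob and Apoa4 differed between double replicate 1 and p53 replicate 2, whereas Apoc2 was high in both. Apob, the scaffold of very-low-density lipoprotein, read 4.74, 4.59 and 4.68 in wt, 5.04, 4.71 and 4.81 in acd, 4.81, 6.32 and 4.33 in p53 embryos, and 4.49, 6.30 and 5.12 in double. Its level in double replicate 1 was 0.18 lower than the wt mean, and a second, dim probe set (below the 40th percentile on all arrays) showed none of these differences. Apoa4 read 3.84 to 3.97 in wt, 3.97 to 4.16 in acd, 3.94, 5.97 and 3.78 in p53 embryos, and 4.02, 4.77 and 3.93 in double. Apoc2, the cofactor of lipoprotein lipase, read 3.79 to 3.82 in wt, 3.48 to 4.26 in acd, 3.87, 5.91 and 3.76 in p53 embryos, and 4.95, 4.54 and 3.90 in double. Apoa4 and Apoc2 passed their array's median only in p53 replicate 2. Mttp, which loads lipid onto Apob, ranged from 5.37 to 5.96 over all embryos, and Apoh stayed between 4.34 and 4.71.

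Promoters of Apoa1, of Serpina1b and its unmeasured paralog Serpina1a, and of Cubn are printed as examples from the secreted proteins and the uptake machinery. The windows are Apoa1 chr9:46228480-46228629 (plus strand), Serpina1b chr12:103738190-103738339 (minus strand), Serpina1a chr12:103863620-103863769 (minus strand) and Cubn chr2:13491877-13492026 (minus strand), in GRCm38.p6 with capitals as above.
Apoa1: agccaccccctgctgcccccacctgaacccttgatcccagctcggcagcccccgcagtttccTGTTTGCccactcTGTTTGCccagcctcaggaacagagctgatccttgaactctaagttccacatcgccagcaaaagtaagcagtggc
Serpina1b: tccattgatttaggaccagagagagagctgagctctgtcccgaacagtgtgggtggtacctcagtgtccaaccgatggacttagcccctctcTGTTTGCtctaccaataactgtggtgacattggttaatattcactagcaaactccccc
Serpina1a: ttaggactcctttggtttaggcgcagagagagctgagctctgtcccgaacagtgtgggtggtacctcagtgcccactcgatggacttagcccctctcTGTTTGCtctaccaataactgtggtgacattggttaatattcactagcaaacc
Cubn: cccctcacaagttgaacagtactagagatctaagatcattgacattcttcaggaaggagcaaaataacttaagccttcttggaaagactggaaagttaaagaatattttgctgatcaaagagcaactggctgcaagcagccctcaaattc
Apoa1 held the FOXA match TGTTTGC at 2 places, both Serpina1 genes held it once, and the Cubn window held none of the motifs. Aligned over the longer windows of 250 bases before the start, Serpina1a and Serpina1b were 88.0% identical (227 of 258 aligned positions, gaps included). RefSeq windows were at hand for 28 of 32 members. Over the 250 bases before the start, searched on both strands, TGTTTGC or its variant TGTTTAC was found in 10 of 18 plasma protein and apolipoprotein members with a RefSeq window and in 1 of 10 other members, against 7.29% of 32851 windows of all genes. A member was counted once if any of its windows matched, whereas the percentages are shares of single windows, so the units differ. TGTTTGC alone was in 7 of 28 members (4.3% of windows), and TGTTTAC in 4 of 28 (3.17%). GTTAATNAT was in Afp, Alb and Fga (0.737% of windows), and TATAAA in 6 of 28 members (12.4%).

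Of the yolk sac uptake genes, Cubn and Amn were higher in p53 replicate 2 than in any double embryo, whereas Lrp2 and Dab2 were not. Cubn, cubilin, read 4.33, 3.99 and 3.94 in wt, 3.85, 4.24 and 4.62 in acd, 4.22, 6.52 and 4.28 in p53 embryos, and 3.86, 4.52 and 4.15 in double. Amn, the partner that anchors cubilin, read 4.60, 4.59 and 4.63 in wt, 4.67, 4.55 and 5.61 in acd, 4.62, 5.58 and 4.74 in p53 embryos, and 4.61, 4.52 and 4.63 in double. Cubn passed its array's median in p53 replicate 2 alone, and Amn in that embryo and acd replicate 3, which also had the highest Apoa1 of its genotype. In double replicates 1 and 2, by contrast, Amn lay within or below the wt range while Alb and Apoa1 were high. Lrp2, megalin, ranged from 5.85 to 6.25 in 11 embryos and read 4.95 in double replicate 1. The second of its probe sets was also low there, by 0.67 against the wt mean. Dab2, an endocytic adaptor, ranged from 8.83 to 9.35, and its 4 probe sets disagreed in direction in double replicates 1 and 2. Vil1, villin of the brush border, stayed below the 40th percentile on all arrays.

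Of the tested transcription factors, Foxa1, Foxa2 and Sox17 were not highest in p53 replicate 2 or double replicates 1 and 2, whereas Hnf4a was highest in p53 replicate 2. Foxa1 ranged from 7.67 to 7.99 and Foxa2 from 7.37 to 7.82 in the wt, acd and p53 embryos. Both were lowest in double replicate 1, at 7.16 and 6.90, and Foxa2 read 7.15 in double replicate 2. Hnf4a, the nuclear receptor of hepatic and visceral endoderm genes, ranged from 5.27 to 5.78 in all embryos except p53 replicate 2, where it read 6.14. Its next brightest probe set differed: it was 0.03 above the wt mean in that embryo and 0.47 above it in double replicate 1. Sox17 ranged from 6.94 to 7.35, and Foxa3 stayed below the 40th percentile. The epithelial genes Cdh1 (7.68 to 8.34) and Epcam (9.09 to 9.69) are expressed in many epithelia of the embryo and varied within narrow limits.

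Ranked over the 12 embryos, the 14 tested plasma protein and apolipoprotein members were highest in double replicate 1 for 11 genes, in p53 replicate 2 for 2 and in double replicate 2 for 1. Over all tested genes these embryos were highest for 32.6%, 8.21% and 13.8%, and double replicate 1 was also lowest for 30.4%, against 0 of the 14. Each of the 3 embryos was among the top 3 for 12 of the 14 genes, against 44.5%, 33.0% and 32.8% of all tested genes.

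**Figure D4:**
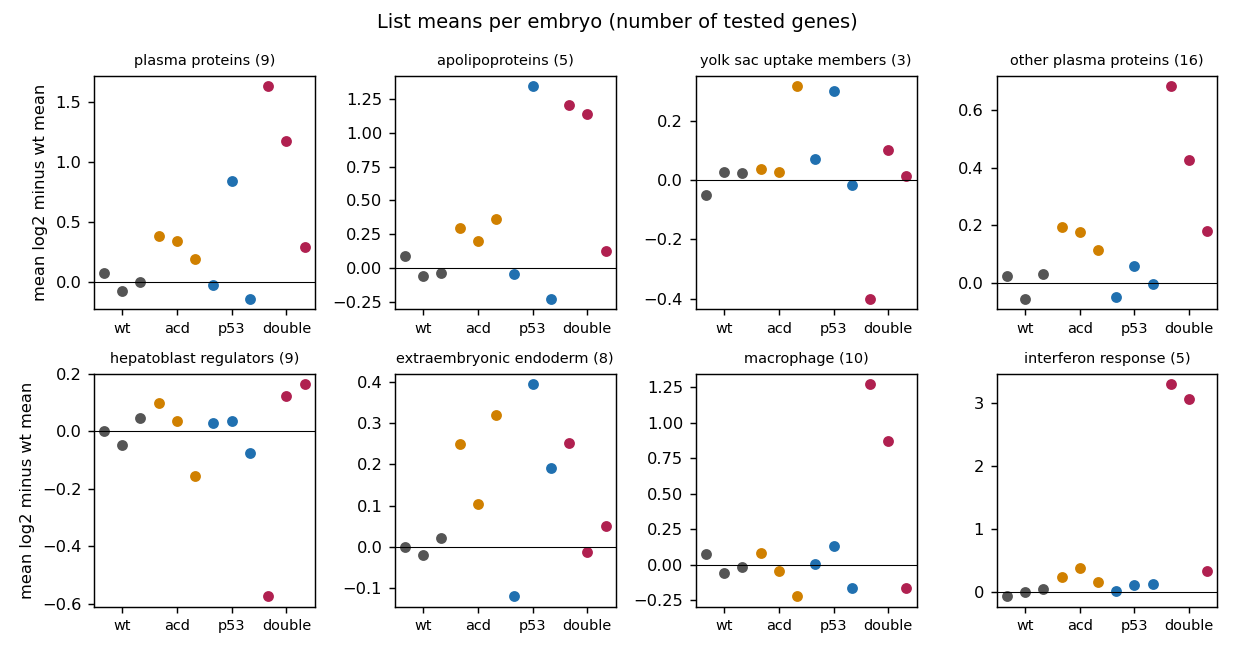
Mean difference from wt (log2, y axis) over the tested genes of each list, 1 point per embryo, by genotype on the x axis, with its own y range in each panel. Plasma protein members reach 1.63 and 1.17 in double replicates 1 and 2 and 0.84 in p53 replicate 2, whereas the other plasma proteins reach 0.68, 0.43 and 0.06 in the same embryos.

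Against wt, double embryos had higher means for the secretory genes, and no member was called (0 of 23, against 0.0148% of all tested genes). At an unadjusted p under 0.05, 10 of 23 members were higher and 0 lower, against 4.69% of all genes higher and 6.41% lower. Their differences were 2.01 ± 0.51 (SE) for Alb (4.03-fold), 1.66 ± 0.62 for Ttr, 1.14 ± 0.43 for Rbp4, 1.06 ± 0.34 for Apoa2, 0.94 ± 0.26 for Serpina1b, 0.83 ± 0.19 for Fgb and 0.78 ± 0.15 for F2. Afp was 2.02-fold higher and Apom 1.94-fold. For Apoa1 the fold was 2.99. The limma adjusted p was 0.447 or 0.448 for each of them. These SEs and p-values use a spread shared by all 12 arrays, whereas the double group was more variable. For Alb the SD was 1.42 in double and 0.27 in wt embryos, and for Ttr 1.29 and 0.18. In every comparison with double embryos the shared spread can therefore give SEs that are too small and unadjusted p-values that are too low. The groups did not overlap for 9 higher members (Afp, Alb, Ttr, Rbp4, Serpina1b, F2, Fgb, Apoa2 and Apom; 4.96% of all genes) and 1 lower member (Sox17; 8.24%). The median difference was 0.95 over the 14 tested plasma protein and apolipoprotein members (the secretory median), -0.022 over the 3 uptake genes and 0.0060 over the 6 factors and epithelial genes. Of 23 members, 17 were higher, against 46.8% of all genes. Without double replicate 3, 11 of 23 members were called, against 12.2% of all genes: the same 10 genes as higher (adjusted p from 1.78e-05 to 0.0479 over the 11) and Foxa2 as lower. Without double replicates 1 and 2, which leaves 1 double embryo assumed to vary like the other groups, no member was called (0.193% of all genes) and the secretory median was 0.31. With array weights 11 members were called, against 13.4% of all genes, all of the 11 higher: Afp, Alb, Apoa2, Apob, Apom, Dab2, F2, Fgb, Rbp4, Serpina1b and Ttr (adjusted p from 0.00423 to 0.046).

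The comparison of double with p53 embryos, which share the p53-/- genotype, called 0 of 23 members (0.00741% of all genes). Alb (1.98 ± 0.51), F2 (0.57 ± 0.15), Serpina1b (0.88 ± 0.26) and Fgb (0.58 ± 0.19) had an unadjusted p under 0.05 and a limma adjusted p of 0.463, against 5.07% of all genes higher and 5.67% lower at that level. Alb was the 1 member whose groups did not overlap (3.29% of all genes higher, 5.01% lower), and 17 of 23 means were higher (48.0% of all genes). Afp differed by 0.68 ± 0.35 and Ttr by 1.13 ± 0.62, with p53 replicate 2 inside the range of the double embryos. The secretory median was 0.66. Without double replicate 3, 7 of 23 members were called, against 1756 of all 13501 genes: Alb, Apoa2, F2, Fgb, Serpina1b and Ttr as higher and Foxa2 as lower (adjusted p from 2.04e-05 to 0.0431). Without double replicates 1 and 2 the secretory median was -0.027, and with array weights Alb and F2 were called higher (0.904% of all genes called).

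Double and acd embryos, both homozygous for acd, differed in 0 of 23 called members (0.00% of all genes). F2 (0.50 ± 0.15), Fgb (0.60 ± 0.19), Alb (1.54 ± 0.51), Serpina1b (0.68 ± 0.26) and Apoa2 (0.78 ± 0.34) had an unadjusted p under 0.05, with limma adjusted p between 0.371 and 0.385, against 6.32% of all genes higher and 6.27% lower. F2 and Fgb did not overlap between the groups (4.41% of all genes higher, 6.90% lower), and 14 of 23 means were higher, against 47.2% of all genes. The secretory median was 0.65. Without double replicate 3, Alb, Apoa2, F2, Fgb, Serpina1b and Ttr were called higher and Foxa2 lower (adjusted p from 9.83e-05 to 0.0393), 7 of 23 against 13.9% of all genes, and without double replicates 1 and 2 the secretory median was -0.076. Array weights called Alb, Dab2, F2 and Serpina1b higher, 4 of 23 against 13.1% of all genes. Since the comparisons share the double embryos, they are not separate evidence.

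The acd embryos lay slightly above wt. No member was called (0 of 23, against 0.0148% of all genes) and none had an unadjusted p under 0.05, against 0.637% of all genes higher and 1.13% lower. These p-values use a spread shared by all 12 arrays, including the more variable double and p53 embryos. Afp, for example, differed by 0.36 ± 0.35 (SE), while its SD was 0.11 in wt and 0.10 in acd. A fit to the wt and acd arrays alone also called no member, against 0.0148% of all genes. The means of 23 of 23 members were higher in acd, against 47.2% of all genes. The groups did not overlap for 8 members (Afp, Ttr, Rbp4, Serpina1b, F2, Apoa2, Apom and Epcam), against 7.24% of all genes higher and 9.86% lower. The secretory median was 0.28, compared with -0.0063 over all genes, and the smallest p-values belonged to F2 (0.28 ± 0.15), Cdh1 (0.23 ± 0.13) and Epcam (0.21 ± 0.13; limma adjusted p of 1 for each). All acd embryos and 1 of 3 wt embryos expressed Y-linked genes. With sex as a term in the fit the secretory median was -0.077 and that of the uptake genes 0.33. Only wt and double embryos held both sexes, so that term was estimated from these groups, with replicate 1 as their Y-positive embryo. The secretory mean difference from wt was 0.08, -0.07 and -0.01 in wt replicates 1 to 3. It was 1.48, 1.16 and 0.23 in double replicates 1 to 3. Whether sex accounts for the acd levels therefore cannot be told from this fit.

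The p53 embryos as a group did not differ from wt in any called member (0 of 23; 0.00% of all genes), and 0 members had an unadjusted p under 0.05 (0.333% of all genes higher, 0.393% lower). The mean was higher for 20 of 23 members, against 48.1% of all genes, and every member's groups overlapped (3.42% of genes higher, 3.36% lower). The differences were 0.04 ± 0.51 for Alb and 0.33 ± 0.35 for Afp (limma adjusted p of 1). The secretory median was 0.28 with all p53 embryos and -0.10 without p53 replicate 2. With sex as a term, estimated from the wt and double embryos alone, this median was -0.0485. Its sign rests on 1 embryo: replicate 2 exceeded the highest wt embryo in 23 of 30 measured members, and replicates 1 and 3 in 6 and 7, against 36.4%, 20.2% and 33.8% of all genes.

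The interaction asks whether the effect of acd differed without p53, and was computed as double minus p53, minus the same contrast with p53 present (acd minus wt). It was called for 0 of 23 members (0.00% of all genes), and 0 had an unadjusted p under 0.05 (2.46% of all genes above 0, 1.47% below). Of 23 estimates, 13 lay above 0, against 49.0% over all genes. The estimates with the smallest p were 1.50 ± 0.72 for Alb, -0.73 ± 0.38 for Amn and 0.61 ± 0.37 for Serpina1b (limma adjusted p of 0.879). Amn lay above the 40th percentile on 4 arrays, all of acd or p53 embryos, and passed the filter through these. Its estimate therefore sets acd replicate 3 and p53 replicate 2 against values near background. Without double replicate 3 the Alb interaction was 2.31 with an adjusted p of 0.00193, the 1 of 23 members called, against 3.25% of all genes in that fit, which is near the same share.

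**Figure D5:**
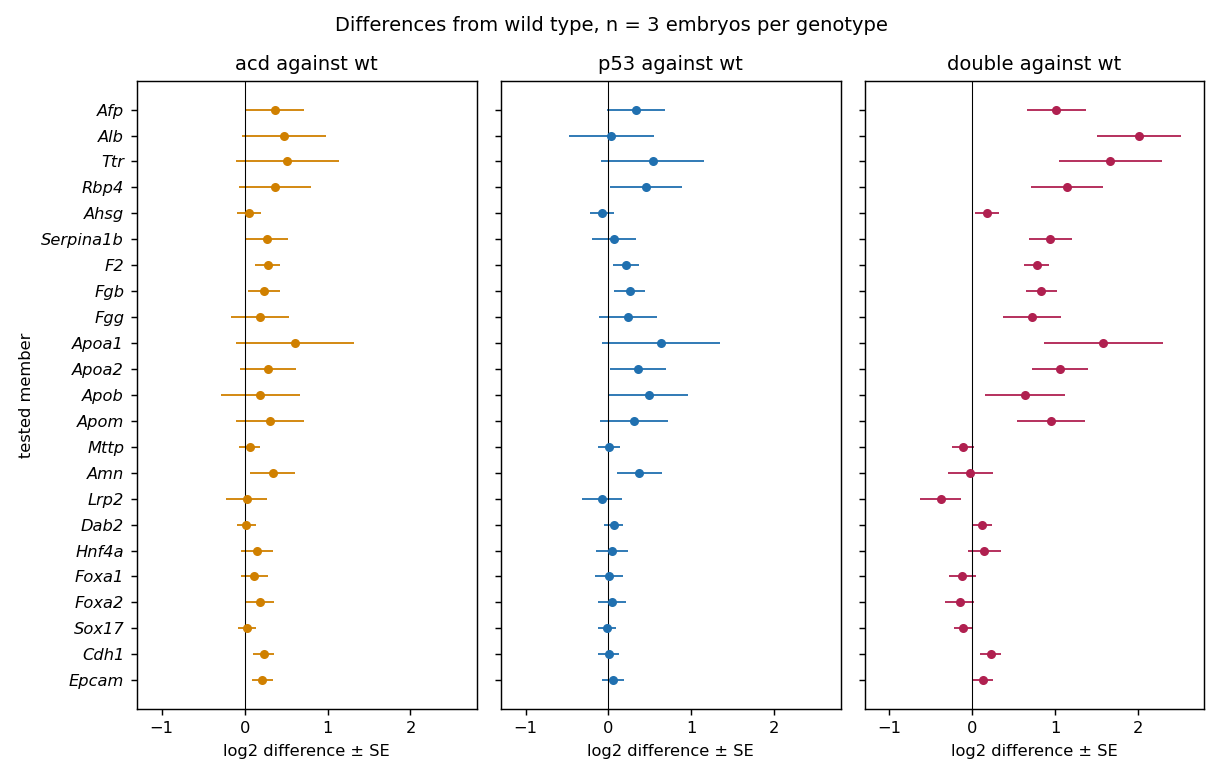
Log2 differences with SE (x axis) of the 23 tested members (y axis) in acd, p53 and double embryos against wt, 1 panel each. The bars are widest for Alb, Ttr and Apoa1, and Alb reaches 2.01 in double against wt and 0.04 in p53 against wt.

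Genes outside the 32 members were read in the same way. Of 32 other plasma proteins, 28 were measured and 16 tested, and 0 were called in double against wt. At an unadjusted p under 0.05, 9 of 16 were higher, against 4.69% of all tested genes. The smallest p-values were those of Serpinc1 (antithrombin), Hpx (hemopexin) and Plg (plasminogen), and the list's median difference was 0.36. Per embryo the mean difference of this list from wt was 0.68, 0.43 and 0.18 in double replicates 1 to 3, 0.06 in p53 replicate 2 and 0.11 to 0.20 in acd embryos. Single genes departed from that mean in both directions: Plg read 6.53 in p53 replicate 2, against at most 5.999 in wt, and Serpinc1 read 5.55, against at most 5.39. In the same embryo Vtn read 8.16, against 8.39 to 8.47 in wt. Of the 16 genes, 6 lay above the wt range there and 4 below it, against 36.4% and 27.9% of all genes. Of 16 other lipoprotein genes, 10 were tested and 0 were called in double against wt. At an unadjusted p under 0.05, 3 of them (Pltp, Vldlr and Apoe) were higher, against 4.69% of all tested genes. Of 12 hepatoblast regulators, 9 were tested, with 0 called and a median of 0.0030 in double against wt. Their mean difference from wt was -0.57, 0.12 and 0.16 in double replicates 1 to 3. In double replicate 1 Onecut2 read 6.22, against 8.16 to 8.28 in wt, whereas Cebpa and Hhex lay close to their wt levels; these genes were chosen after their values were seen.

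Extraembryonic endoderm markers gave 8 tested genes of 10, with 0 called in double against wt. At an unadjusted p under 0.05, 1 was higher (Pla2g12b) and 1 lower (Gata6), against 4.69% of all tested genes higher and 6.41% lower. Rhox5, a homeobox gene of extraembryonic tissue, read 6.28, 6.16 and 6.18 in wt, 6.63, 6.49 and 7.03 in acd, 5.63, 7.38 and 6.97 in p53 embryos, and 6.45, 6.17 and 5.58 in double. Spink1 read 5.51 in p53 replicate 2 and at most 4.80 in every other embryo. Both genes, chosen here after their values were seen, had their highest value in the embryo with the highest Cubn. Others of the list did not: in that embryo Fcgrt read 6.60, against 6.90 to 7.01 in wt, and Gata6 and Dpp4 lay at 8.66 and 4.86, near their wt levels. The list's mean difference from wt was 0.40 in p53 replicate 2, 0.25, 0.10 and 0.32 in acd embryos, and 0.25, -0.01 and 0.05 in double embryos. For parietal endoderm, 8 of 8 markers were tested, with 0 called in double against wt and a median of 0.04. There 2 were higher (Plat and Sparc) and 0 lower at an unadjusted p under 0.05, against the same shares of all tested genes. Sparc read 12.31 and 12.01 in double replicates 1 and 2 and 11.57 to 11.66 in wt. In double replicate 1, Lama1, Lamb1, Col4a1 and Col4a2, chosen after their values were seen, lay below the wt range. Lama1 read 6.55 there, against 7.43 to 7.64 in wt. The list's mean difference from wt was -0.09, 0.14 and 0.09 in double replicates 1 to 3. Whether yolk sac tissue contributed RNA to any embryo was not tested.

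Markers of other cells also moved with double replicates 1 and 2. The 10 macrophage markers, all tested, were higher in double than in wt embryos in 10 of 10 cases, against 46.8% of all tested genes. Of these markers 0 were called, and 6 were higher at an unadjusted p under 0.05, against 4.69% of all tested genes. They had a mean difference from wt of 1.27 and 0.87 in these embryos, -0.16 in double replicate 3, -0.22 to 0.09 in acd and -0.16 to 0.13 in p53. Of 12 interferon response genes 9 were measured and 5 tested. The mean of the 5 stood at 3.30 and 3.06, at 0.34 in double replicate 3, at 0.16 to 0.38 in acd and at 0.02 to 0.13 in p53. The filter left out Irf7, Ifit1, Ifit3 and Oasl2, which were high in double replicates 1 and 2 alone. Ifit1, for example, read 9.14 and 8.87 there, against at most 3.63 in wt. In both lists p53 replicate 2 was close to wt, at 0.13 and 0.12, while its Apoa1 was 2.44 above the wt mean. For 8 primitive erythroid genes the mean differences were 0.48, 0.14 and -0.35 in double replicates 1 to 3. The part of these cell types or responses in the levels of the secretory genes was not tested.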

How the data were processed

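RNA of 12 whole embryos was hybridised to Affymetrix 3' arrays, 1 per embryo, per the labels' protocols. The deposited values are log2 expression levels, which the authors made with justRMA, per the series' design text. It also names BRB-ArrayTools 4.4.0 for their own gene selection. Array medians lay between 5.32 and 5.40. RMA hides changes in total RNA per embryo, and the number of arrays limits the precision.

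Of 45101 probe sets, 34945 had 1 gene symbol in the platform annotation, 932 several, 13 were controls and 9211 were not listed. The RefSeq table of GRCm38.p6 matched 34741 probe sets and changed 0 symbols. The probe set with the highest mean represented a gene, tested if above the array's 40th percentile on at least 3 arrays (13501 of 18193 genes). Genotype means were fitted to all 12 arrays with limma 3.58.1 in R 4.3.3 (8 residual degrees of freedom), with Benjamini-Hochberg adjustment. The script was tested on simulated data. Groups and replicate numbers came from the sample titles. All measured members were named, and of other lists up to 3 genes with the smallest p per comparison, with exceptions stated. Members, lists and comparisons were chosen with earlier results of these data known. Alternatives were the probe set rule, the filter, array weights, a replicate block, sex as a term and embryos left out. The p53 transcript was not analysed here.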

Additional observations from a re-analysis of the deposited data

Results flagged for a closer look

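Signals appeared in 3 members that were too low in most embryos to enter the filtered test. Apoa4 read 5.97 in p53 replicate 2, against at most 3.97 in wt. Apoc2 read 5.91 in the same embryo, against at most 3.82 in wt. Cubn read 6.52 there, against at most 4.33 in wt. All 3 stand above the array median in this embryo alone. They did not enter the filtered test; in the limma fit with no filter on low values their p53 minus wt differences were 0.67 ± 0.44 (SE) for Apoa4, 0.71 ± 0.46 for Apoc2 and 0.92 ± 0.48 for Cubn, each with an adjusted p of 1.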

How the results depend on the processing

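No member was called in acd against wt or p53 against wt under any of 24 alternatives. With array weights 2, 4 and 11 members were called in double against p53, acd and wt, among 122, 1774 and 1805 of all genes; without double replicate 3 the genes called were 1756, 1876 and 1646, where the fit to all arrays called 1, 0 and 2. Leaving out 1 embryo gave 0 to 7 members called in double against p53, 0 to 7 against acd, 0 to 11 against wt and 0 to 1 for the interaction. Apart from these, the causes of the shifts below were not tested.

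Median log2 differences moved as follows. The sex term was estimated from the wt and double embryos alone, since all acd and p53 embryos expressed Y-linked genes. With sex as a term the secretory median was -0.077 in acd against wt and 1.14 for the interaction. The uptake median was 0.33 in acd and 0.36 in p53 against wt and -0.72 for the interaction. Alb was then -0.18 in acd and -0.61 in p53 against wt. Without double replicates 1 and 2 the secretory median was -0.027 in double against p53, -0.076 against acd and -0.33 for the interaction, and the uptake median against acd was -0.016. Alb was then -0.085 against acd and -0.12 for the interaction, and Afp -0.0008 against p53, -0.031 against acd and -0.365 for the interaction. With p53 replicate 2 also left out, chosen after seeing the data, values against acd were the same, the uptake median was -0.020 in double against p53 and -0.041 for the interaction, and the factor and epithelial median 0.21 and 0.031. Alb was then -0.048 for the interaction and -0.037 in p53 against wt, where Afp was -0.14.

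With a filter at the 60th percentile the uptake median was 0.0585, 0.0997 and 0.038 in double against p53, against acd and for the interaction, and the factor and epithelial median -0.11 in double against wt. With no filter the last was 0.13, and with the mean of probe sets -0.096. The mean of probe sets gave uptake medians of -0.090 against acd and -0.033 for the interaction, and array weights -0.0004 against p53 and -0.036 for the interaction. Leaving out 1 embryo, the uptake median ran from -0.42 to 0.062 against p53, -0.43 to -0.027 against acd and -0.52 to 0.039 for the interaction, Alb in p53 against wt from -0.050 to 0.19 and Afp from -0.14 to 0.62.

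With the replicate number as a block, 0 members were called in every comparison and the secretory median of double against wt was 0.95. The numbers only name the embryos: deviations of same-numbered embryos correlated from -0.226 to 0.395 over 18 pairs, and 5 of 12 arrays matched best with their own number. Low signal limits Ahsg, Amn, Apob, the wt baseline of F2 and the 7 untested members.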

Other observations

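Gut tube and surface ectoderm are epithelia that also express Cdh1 and Epcam. Of 8 gut tube markers 7 were tested, with 0 called and 0 at an unadjusted p under 0.05 in double against wt by limma; the smallest p-values were those of Krt8, Krt18 and Cldn6, and the median difference was -0.16. Of 8 surface ectoderm markers 8 were tested, with 0 called and a median of 0.04. Among these, 1 (Krt5) was higher at an unadjusted p under 0.05, against 4.69% of all tested genes.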
